A study of Capra hircus with 24 samples.

Results

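Secondary and primary dermal papilla cells of cashmere goats (Capra hircus) labelled female, sampled in October, were compared in 6 of the 24 RNA sequencing libraries of a study on cashmere growth. The 6 were chosen by their labels alone: follicle type secondary or primary, month October, sex female, with 3 libraries in each group, here called F1 to F3. The labels place the follicles of October in anagen, the phase of active hair growth, and those of June in early anagen. The other 18 libraries hold the same cell types from males in October (M libraries) and from both sexes in June. No treatment, genetic change, breed, age or number of goats is named, and nothing says whether cells were cultured or pooled before extraction. Each group's libraries are labelled as biological replicates, but whether separate goats or cultures stand behind them is not said, so p-values measure the spread between libraries, which may be technical.

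The dermal papilla is a cluster of mesenchymal cells at the base of the hair follicle. It sends Wnt, BMP, FGF and other signals to the epithelial matrix cells above it, which divide and form the fibre. Secondary follicles grow the fine undercoat, the cashmere, and their growth follows the season, whereas primary follicles grow the coarse guard hair. SOX2, a transcription factor, marks the papillae of some hair types and not of others in mouse skin.

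All values below are the normalised expression values that the authors deposited, with no unit named, and fold changes are differences of log2(value + 1), secondary minus primary. The 6 libraries sum to between 970379 and 1013473, and each lists between 12059 and 12281 genes at 1 or more. The reads behind a value are unknown, so counting error could not be attached to it. Correlations across genes, which are not independent replicates, were 0.9951 to 0.9967 among secondary, 0.9928 to 0.9963 among primary and 0.9783 to 0.9821 between the groups. In a principal component analysis of the 6 libraries, PC1 (70.95% of variance) separated secondary from primary cells. PC2 (14.58%) set secondary F1 and primary F2 apart from the other 4 libraries. Mitochondrially encoded genes held 12.72%, 11.16% and 11.16% of the signal in secondary F1 to F3 and 10.28%, 10.85% and 10.61% in the primary libraries. The Y-linked gene SRY was listed at 0 in all 24 libraries, those labelled male included, so it does not check the sex labels.

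Marker lists of other skin cells were present in part. Of the endothelial markers, 4 of 12 (CDH5, CLDN5, EMCN and TIE1) were at 0 in all 6 libraries, and the whole list summed to 57.69 to 62.04 in secondary and 46.56 to 49.38 in primary libraries. Of the immune cell markers, 6 of 18 (PTPRC, C1QA, C1QB, C1QC, ITGB2 and MS4A1) were at 0, with sums of 20.1 to 21.08 and 23.84 to 25.84. The order of these sums depends on LAPTM5, a member of the list that was near 0 in secondary but not in primary libraries. Of the markers of hair shaft and inner root sheath, 6 of 15 (KRT25, KRT26, KRT27, KRT32, KRT35 and KRT74) were at 0, with sums of 34.07 to 36.14 and 38.13 to 40.38, most of it from the homeobox gene MSX2. Of the melanocyte markers, 1 of 12 (DCT) was at 0, with sums of 26.04 to 28.43 and 21.2 to 26.59. Schwann cell markers summed to 198.3 to 205.6 in secondary and 105.5 to 115.3 in primary libraries, and CDH19 was at 0 in all 6. Pericyte markers summed to 164.7 to 186.1 and 131.3 to 163.2, and no member was at 0 throughout. The part of these lists in the differences described here was not tested. Papilla genes were also present in part. VCAN (versican), BMP4, LEF1, RSPO3 and FGF7 were listed well above 1 in every library. ALPL, the alkaline phosphatase used to stain papillae, stayed under 1 in all 6. CORIN, a protease of the mouse papilla, was listed at 0.16, 0.17 and 0.22 in secondary and 0.12, 0.16 and 0.19 in primary cells, and the Hedgehog inhibitor HHIP at 0.01 or less.

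Of 13049 genes tested, 4628 (35.5%) were called at an adjusted p under 0.05 (limma, Benjamini-Hochberg), 2387 higher (18.3%) and 2241 lower (17.2%) in secondary cells. Most of these differences were small: the median absolute log2 difference of the called genes was 0.331, and 3624 of them were under 1.5-fold. A difference of at least 2-fold was called for 402 genes (3.08%), 260 higher (1.99%) and 142 lower (1.09%). The libraries of the groups did not overlap for 4785 genes (36.7%). Genes named below for a difference were picked from these same libraries, so their lack of overlap is not further evidence. Estimating the spread from these 6 libraries alone left 2796 calls. Counts of called members in the gene lists below are to be read beside the 18.3% higher and 17.2% lower of all genes.

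**Figure D1:**
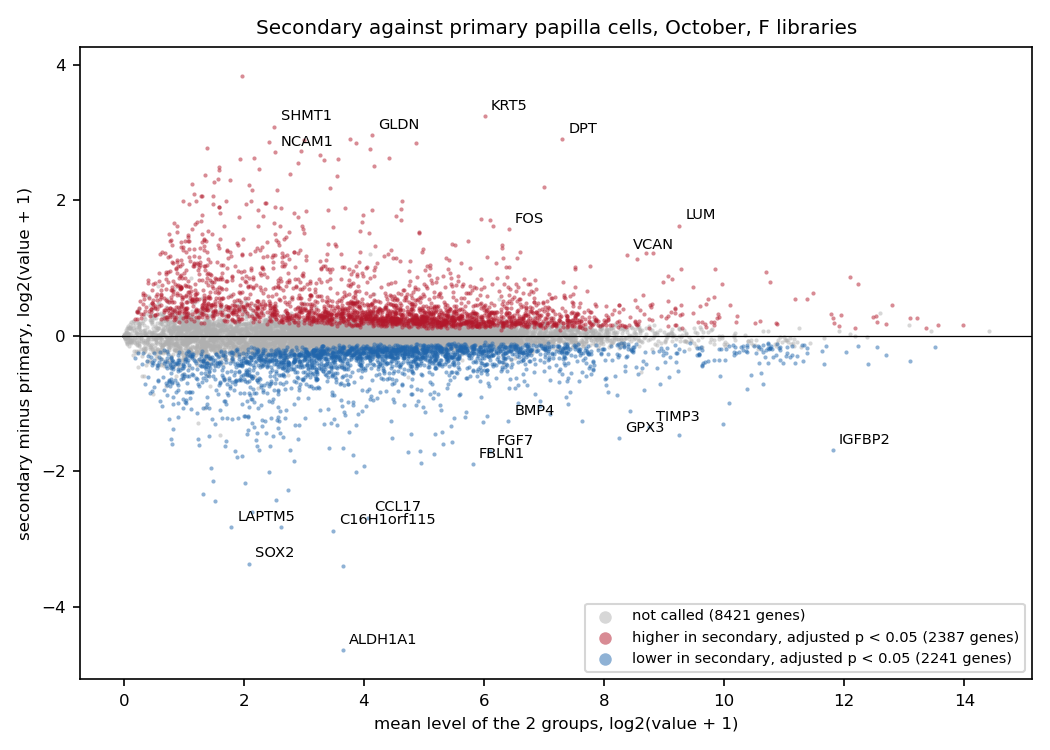
Each point is one of the 13049 tested genes, placed by its mean level in the groups (x axis, log2(value + 1)) and by its difference between secondary and primary cells (y axis, same scale). Red points were called higher (2387) and blue points lower (2241) in secondary cells, and ALDH1A1 is the lowest point at -4.64.

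Keratins and epithelial adhesion genes were among the genes that were most strongly higher in secondary cells. KRT5 and KRT14 pair to form the keratin filaments of basal keratinocytes. KRT5 was 186, 201 and 203 in secondary and 17.9, 19.7 and 22.5 in primary F1 to F3, a difference of 3.24 (SE 0.089, limma adjusted p 3.73e-18). KRT14 was 72.1, 78.4 and 82 against 9.15, 10.1 and 10.7, a difference of 2.84 (SE 0.095). All 3 secondary libraries were far above all 3 primary libraries for both keratins. KRT6A, a keratin of the companion layer and of wounded epidermis, was 26.1, 30.5 and 28.1 against 3.47, 3.41 and 4.54, a difference of 2.61. The desmosome protein PKP1 was 3.26, 4.17 and 4.54 against 0.22, 0.19 and 0.15, and involucrin (IVL), a precursor of the cornified envelope, was 2.4, 1.95 and 2.12 against 0.08, 0.08 and 0.1. For PKP1 and IVL the primary libraries were near 0 and the secondary libraries were not.

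Of 38 keratinocyte and hair matrix markers listed, 27 could be tested. Of these, 24 were higher and 2 lower in secondary cells, with a median difference of 1.09, against 18.3% and 17.2% of all genes and a median of 0.00331. A value of 1 or more in 3 libraries was enough for testing, so a marker could enter through the secondary libraries alone. With a filter in 6 libraries, 19 markers were tested, 16 higher and 2 lower, with a median of 0.858. The members that were lower were JUP (plakoglobin, shared by desmosomes and adherens junctions) and PPL (periplakin), and KRT10 was not called. The lower count was 1 without secondary F1 or primary F3. With the spread of the 6 libraries alone, 23 were higher and 0 lower. Higher members also included EPCAM (4.69 against 0.637, group means), KRT19 (41.5 against 11.6), desmoplakin DSP (2.44 against 0.303) and E-cadherin CDH1 (3.41 against 1.14). The values of all 33 markers in the files summed to between 454.5 and 497.5 in the secondary and between 109.6 and 124.8 in the primary libraries. In bulk RNA, more cells of a type and more RNA per cell cannot be told apart. The part of this epithelial signal in the other differences described here was not tested.

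Among genes of the papilla itself, SOX2 was nearly restricted to the primary cells. It was 0, 0.3 and 0.7 in secondary and 13.1, 11.4 and 12.8 in primary libraries, a difference of -3.36 (SE 0.14, limma adjusted p 7.93e-15). VCAN, the large proteoglycan long used as a papilla marker, went the other way at 541, 483 and 478 against 208, 233 and 215, a difference of 1.19 (SE 0.052). NCAM1, a surface adhesion molecule of papilla and sheath cells, was 13.3, 14 and 13.4 in secondary and 1.12, 1.11 and 1.49 in primary libraries, a difference of 2.70. The groups did not overlap for any of these genes, and the spread within a group was small beside the gap. Of 25 tested genes of the papilla signature, 9 were higher and 9 lower, and the median difference was -0.001. The medians of this list, of the Wnt inhibitors and targets and of the integrins, all close to 0, changed sign when single libraries were left out and give no direction. TRPS1 (14.6 against 9.41), a zinc finger repressor needed for hair growth, was higher. FOXD1 (1.75 against 5.35), a forkhead factor, was lower. WIF1 (1.79 against 2.09), RSPO3 (142 against 147), ENPP2 (73 against 74.9) and the cadherin CDH11 (563 against 564) did not pass the test.

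The largest fall among genes with a symbol was that of ALDH1A1, one of the enzymes that oxidise retinaldehyde to retinoic acid. It was 1.72, 1.65 and 1.16 in secondary and 58.4, 70.7 and 56 in primary libraries, a difference of -4.64 (SE 0.094, limma adjusted p 5.42e-20). ALDH1A3, which catalyses the same step, was higher instead, at 7.51, 7.67 and 6.75 against 1.83, 1.81 and 1.45, a difference of 1.63 (SE 0.084). Both enzymes separated the groups completely, in opposite directions. Of the 17 tested genes of the retinoic acid pathway, 7 were higher and 6 lower, with a median of 0.056. Without secondary F1 the lower count was 3, and without primary F2 the median was 0.0039. Higher members included the cellular binding protein CRABP1 (8.19, 11.4 and 9.32 against 2.67, 2.89 and 1.86), CRABP2 (678 against 552, group means) and STRA6, the cell surface receptor for retinol-binding protein (1.81, 1.64 and 1.85 against 0.11, 0.05 and 0.11). Lower members included DHRS3, which reduces retinaldehyde back to retinol, at 7.76, 6.3 and 8.7 against 17.5, 19.3 and 18, and the receptor RARB at 3.08, 3.79 and 3.25 against 5.48, 6.12 and 6.13. The adjusted p of these genes was at most 0.000762.

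**Figure D2:**
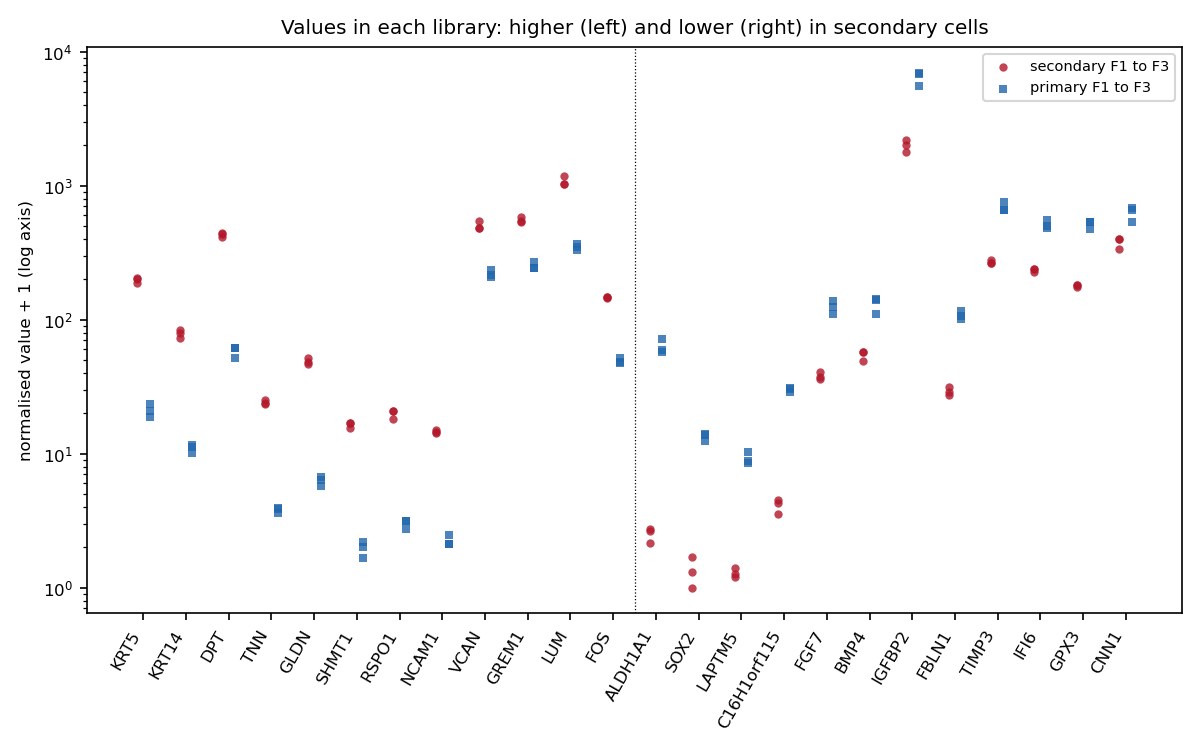
Points are the normalised value + 1 (y axis, log scale) of 24 genes in the 3 secondary (red circles) and 3 primary (blue squares) October F libraries. For each gene the groups do not overlap, from KRT5 (197 against 20, means) on the left to the smooth muscle gene CNN1 (378 against 622) on the right. The 24 genes were picked with their differences known, and the groups did not overlap for 36.7% of all tested genes.

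Wnt signalling in the papilla involves secreted ligands, Frizzled receptors, R-spondins that keep receptors at the surface, and secreted inhibitors. Of 28 tested Wnt ligands, receptors and R-spondins, 14 were higher and 7 lower in secondary cells, with a median of 0.17. With a filter in 6 libraries, 11 of 25 were higher and 7 lower, with a median of 0.0846. Without the filter, 18 of 39 were higher and 7 lower, with a median of 0.0724. RSPO1 was 17.1, 19.9 and 19.7 in secondary and 2.13, 2.13 and 1.74 in primary libraries, a difference of 2.73 (SE 0.098, limma adjusted p 5.21e-16). The other R-spondins did not follow it: RSPO2 was lower (5.88 against 9.19, means) and RSPO3 did not pass the test (142 against 147). Among ligands, WNT11 was 4.19, 4.94 and 5.17 against 0.6, 0.52 and 0.53 and WNT5A was 199.9, 196 and 189 against 131, 124 and 137, both without overlap. WNT5B (5.14 against 2.07), WNT2 (7.92 against 4.06), WNT16 (1.45 against 0.517), WNT10B (4.55 against 2.88), WNT6 (1.52 against 0.653) and WNT9A (5.84 against 4.8) were also higher. Receptors were divided. FZD7 was 2.59, 2.65 and 2.74 against 0.78, 0.88 and 0.75, FZD8 was 9.42, 10.4 and 11.4 against 22.6, 21 and 23.3, and FZD10 was lower at means of 6.16 against 9.66.

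Of 18 tested Wnt inhibitors and targets, 6 were higher and 4 lower, with a median of 0.018. Without secondary F3 the lower count was 2, and without primary F1 the median was -0.0216. AXIN2 (4.12 against 2.67), NKD1 (10.9, 11.8 and 9.84 against 3.94, 3.6 and 4.3) and APCDD1 (9.18, 12.4 and 12.5 against 4.5, 4.14 and 4.72) act as feedback inhibitors of the pathway and were higher in secondary cells. Secreted Frizzled-related proteins differed in direction. SFRP2 was 9.19, 7.95 and 8.71 against 2.75, 2.83 and 2.77, whereas SFRP4 was 1.69, 1.49 and 2.31 against 7.19, 6.03 and 6.66, and SFRP1 was lower at means of 35 against 42.5. The transcription factor TCF7 was higher at 6.84, 5.5 and 6.67 against 3.67, 3.92 and 4.61. LEF1, its relative, was 8.06, 8.11 and 8.26 against 9.82, 9.83 and 9.29, a difference of -0.22 with a limma adjusted p of 0.0384. That call was lost in turn without secondary F1, F2 or F3 and without primary F1 or F2, with adjusted p-values from 0.065 to 0.0949.

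BMP and TGF-beta ligands act through paired receptors and SMAD proteins, and secreted antagonists such as noggin and gremlin hold them back. Of the 45 genes of these pathways tested, 22 were higher and 10 lower, with a median of 0.14. BMP4, a papilla ligand, was 47.8, 56.1 and 56.3 in secondary and 138, 109 and 142 in primary libraries, a difference of -1.26 (SE 0.081, limma adjusted p 1.67e-11). GREM1, a BMP antagonist, was 581, 541 and 539 against 244, 269.8 and 242, a difference of 1.13 (SE 0.041). NOG (noggin) was 2.05, 3.25 and 2.71 against 1.04, 0.73 and 0.97, and chordin CHRD was higher at means of 5.51 against 1.83. The ligand was thus lower and these 3 antagonists were higher in secondary cells. The antagonist FST went the other way (94.1 against 122), as did BAMBI, a decoy receptor, at 1.97, 1.97 and 2.31 against 8.97, 7.37 and 9.42. ID1 (26.3 against 18), ID2 (26.9 against 17.9), ID3 (27.2 against 21.6) and ID4 (22.5 against 10.7), genes induced by BMP signals, were all higher. Among ligands, GDF6 was 16.5, 15.7 and 15.3 against 5.64, 5.83 and 5.3 and TGFB3 was 32.5, 34.3 and 33.2 against 14.5, 13.5 and 15.4. The receptors TGFBR2 (49.1, 46.9 and 45.9 against 76, 73.9 and 76.6) and TGFBR1 (38.7 against 50.7, means) were lower. SMAD7, which inhibits TGF-beta receptors, was higher (17.6 against 9.84).

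Of 46 tested growth factor and receptor genes, 15 were higher and 20 lower, with a median of -0.11, or -0.0522 without secondary F1. Without the filter, 19 of 63 were higher and 19 lower, with a median of 0, so the list gives no settled direction. FGF7, a papilla factor that acts on epithelial cells, was 39.5, 36.2 and 35.1 in secondary and 122, 138 and 108 in primary libraries, a difference of -1.70 (SE 0.087, limma adjusted p 2.57e-13). FGF10, which binds the same receptor, was 3.99, 3.74 and 3.72 against 5.84, 6.78 and 5.14, a difference of -0.52 (SE 0.084). Both were lower in every secondary library, as were FGF2 (6.09 against 8.85) and HGF (7.2 against 10.1) by their means. FGF5, a brake on hair growth, was 0.13 in secondary F2 and 0 in the other 5 libraries. The receptors FGFR1 (77 against 60.9) and FGFR2 (19.8 against 13.9) were higher.

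Insulin-like growth factor binding proteins differed widely. IGFBP2 was 1783, 2023 and 2173 against 6953, 5519.5 and 6832, a difference of -1.69 (SE 0.079), and IGFBP3 was 123, 124 and 123 against 46.2, 44.5 and 54.6, a difference of 1.33 (SE 0.064). IGFBP5 (791 against 1198), IGFBP6 (770.2 against 1537) and IGFBP7 (676 against 924) were lower like IGFBP2, and IGFBP4 (636 against 445) was higher like IGFBP3. IGF1 did not pass the test (15.5, 15.1 and 13.1 against 14, 14.4 and 12.2), and IGF2 was low and lower in secondary cells (1.79 against 5.35). The platelet-derived growth factor PDGFC was 86.9, 87.7 and 83.7 against 166, 178 and 163, and PDGFD was lower as well (5.79 against 10.5). STC2 (stanniocalcin 2), a secreted inhibitor of IGF-binding protein cleavage, was 9.67, 10.4 and 10.3 against 0.92, 1.07 and 1.08, a difference of 2.46. AREG (amphiregulin), an EGF receptor ligand, was higher at means of 3.17 against 0.303, and EREG (epiregulin), another, was lower at 0.497 against 2.18. Midkine (MDK, 308 against 151) and its relative pleiotrophin (PTN, 1017 against 1761) also differed in opposite directions.

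Matrix genes differed in both directions. DPT (dermatopontin), a small protein that binds collagen and decorin, was 439, 414 and 436 in secondary and 60.3, 50.5 and 60.2 in primary libraries, a difference of 2.90 (SE 0.078, limma adjusted p 2.73e-18). TNN (tenascin-N) was 22.6, 23.1 and 24 against 2.93, 2.85 and 2.63, a difference of 2.67 (SE 0.093). FBLN1 (fibulin 1), an elastic fibre protein, was 26.3, 30.5 and 27.8 against 105, 101 and 116, a difference of -1.89 (SE 0.054). The first pair was high and FBLN1 low in all 3 secondary libraries. Of 67 tested matrix proteins other than collagens, 29 were higher and 17 lower, with a median of 0.076, or 0.166 without secondary F1 and 0.145 without primary F3. The small leucine-rich proteoglycans LUM (1173, 1021 and 1022 against 345, 366 and 329.7), DCN (1373, 1282 and 1251 against 674, 656 and 635), FMOD (664 against 381), BGN (914 against 558), ASPN (1109 against 743) and PRELP (66.5 against 42.5) were higher. OMD (3.91 against 6.38) was lower, and OGN (35.4 against 36) was not called. THBS2 was 662, 692 and 699.6 against 289.9, 269 and 318. Fibronectin FN1 (6244 against 3684) and SPARC (5900.0 against 3257) were higher too, whereas the fibulins FBLN2 (202 against 337) and FBLN7 (18.6 against 64.8) and SMOC2 (219 against 403) were lower.

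Of 25 tested collagen genes, 14 were higher and 2 lower, with a median of 0.19. COL12A1, a fibril-associated collagen, was 2308, 2317 and 2276 against 1092, 1208 and 1308. The main fibrillar chains COL1A1 (6523 against 5318), COL1A2 (8321 against 6062) and COL3A1 (4804 against 4462) were higher by 0.30, 0.46 and 0.11. COL7A1, the anchoring fibril collagen made by keratinocytes and fibroblasts, was 21.5, 24.9 and 25.4 against 5.76, 5.55 and 5.8, and the basement membrane collagen COL18A1 was 13.8, 14.8 and 15.1 against 3.66, 2.76 and 3.63. The lower members were the chains of collagen VIII. COL8A1 was 1.77, 1.38 and 1.38 against 5.77, 6.5 and 5.29 and COL8A2 was 24.8, 25.5 and 27.8 against 54, 53.2 and 54.6. COL17A1 (4.27 against 1.91) and the laminin chains LAMA3 and LAMB3 are also members of the keratinocyte list and are counted in its summed level.

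Proteases that remodel the matrix, with their inhibitors, gave 17 higher and 12 lower of 37 tested, with a median of 0.084. MMP9, a gelatinase, was 4.78, 4.36 and 5.11 against 0.29, 0.46 and 0.37, a difference of 2.07. The collagenases MMP13 (3.64, 3.48 and 3.87 against 0.62, 0.85 and 0.5) and MMP1 (8.3 against 3.15) and the membrane-type enzymes MMP15 (7.83, 9.13 and 8.78 against 2.76, 2.71 and 2.53) and MMP14 (525 against 378) were higher as well. TIMP3, an inhibitor bound to the matrix, was 279.9, 265 and 264 in secondary and 662, 749 and 658 in primary libraries, a difference of -1.35 (SE 0.043). TIMP1 (1731 against 1653) and TIMP2 (466 against 454) did not pass the test. The protease ADAMTS1 (107, 105 and 105 against 147, 156 and 157) was lower in each secondary library.

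**Figure D3:**
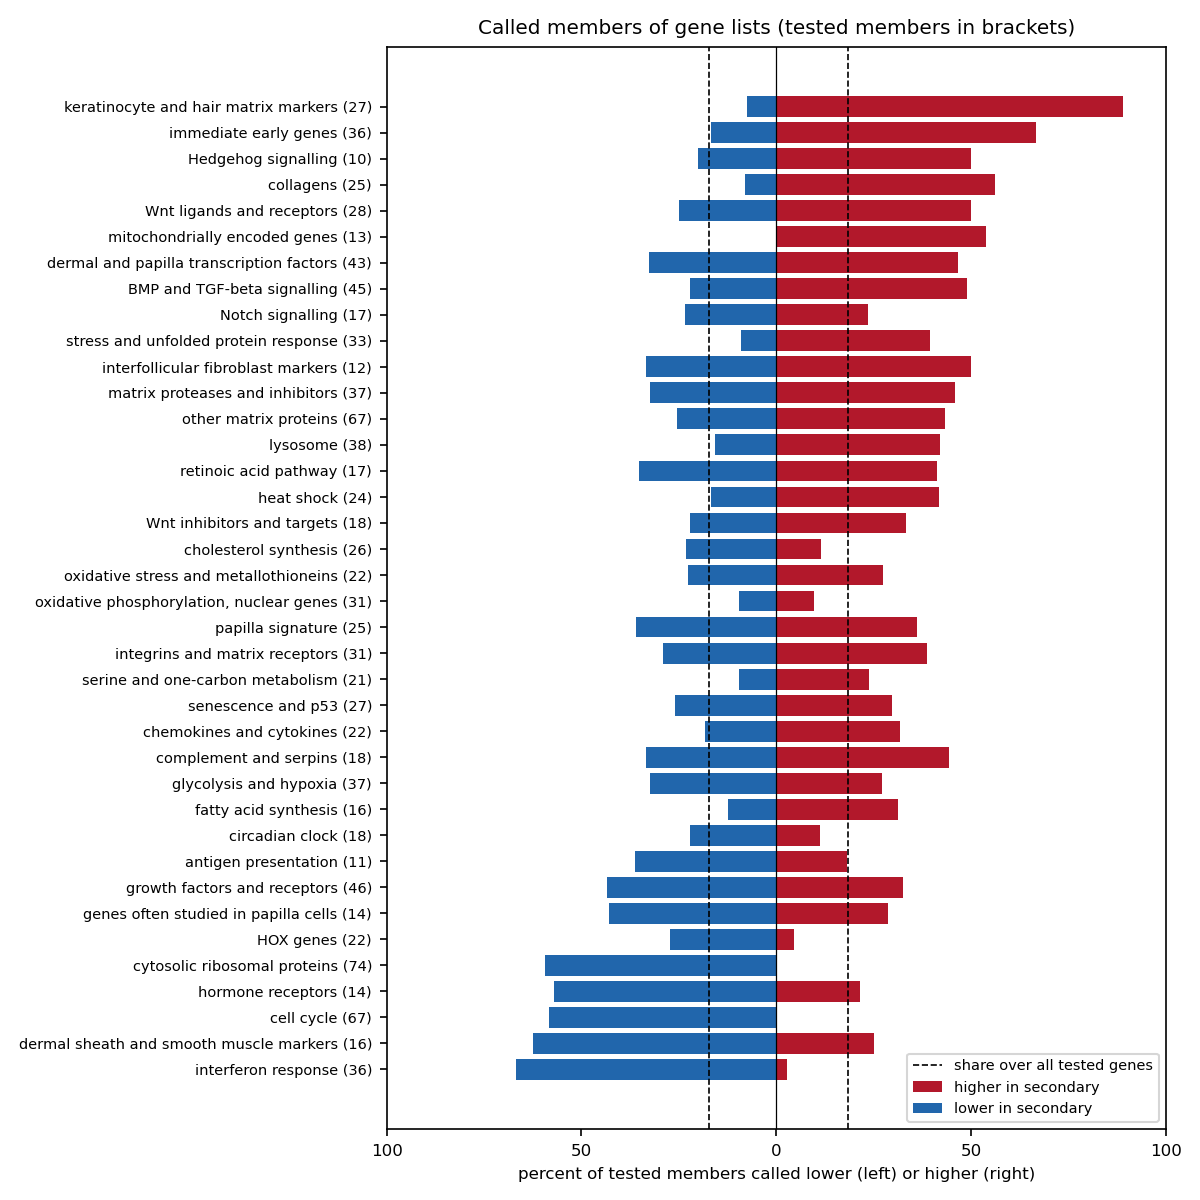
Bars give the percent of tested members of each gene list (10 or more tested members, number in brackets) called higher (red, right) or lower (blue, left) in secondary cells, ordered by the median difference. The dashed lines mark the shares over all tested genes, 18.3% higher and 17.2% lower. The keratinocyte list, with 24 of 27 higher, is at the top, and the interferon list, with 24 of 36 lower, is at the bottom. With a filter in 6 libraries the keratinocyte list had 16 of 19 higher.

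Contractile genes of the dermal sheath and smooth muscle were mostly lower in secondary cells. Of 16 tested, 10 were lower and 4 higher, with a median of -0.32. MYL9, the regulatory myosin light chain, was 1198, 1290.3 and 1244 against 2149.9, 1814 and 2174, and ACTG2 (smooth muscle gamma-actin) was 1120.4, 1152 and 1168 against 1799, 1537 and 1798. TPM1 (tropomyosin) was 7667, 7709 and 7612 against 9931, 9750.0 and 10154. The secondary libraries lay below all primary libraries for each of them, as they did for ACTA2 (4674 against 6250.0, means) and calponin CNN1 (378 against 622). The higher members were DES, SYNPO2, TNNT3 and SMTN. DES (desmin), the intermediate filament of muscle, was 21.1, 25.4 and 25.3 against 3.29, 2.91 and 3.12, a difference of 2.60 (SE 0.075). SYNPO2 (synaptopodin 2), an actin bundling protein, was 47.9, 48.9 and 49.2 against 10.7, 11.7 and 12, a difference of 1.99 (SE 0.051). TNNT3 (9.9 against 3.62), a skeletal troponin, and SMTN (smoothelin, 71.2 against 51.4) completed the group.

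Integrins bind the cell to this matrix. Of 31 tested integrins and matrix receptors, 12 were higher and 9 lower, with a median of -0.005. ITGB3 was 21.5, 20.5 and 20.9 in secondary and 55.1, 63.4 and 59.1 in primary libraries, a difference of -1.45 (SE 0.044), and ITGA3 was 18.4, 20.2 and 20.2 against 40.8, 38 and 43.8. ITGB1, the common beta chain, was 1526, 1491 and 1440.3 against 1939.8, 2054 and 1881. These 3 chains were lower without overlap. ITGB6, an integrin chain of epithelia, was 3.73, 3.18 and 3.87 against 0.16, 0.14 and 0.16 and moved with the keratinocyte markers. GPC4, a glypican, was higher at 104, 106 and 101 against 58.9, 63.3 and 59.6.

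Of 43 tested transcription factors of dermis and papilla, 20 were higher and 14 lower, with a median of 0.15. DMRT2, a doublesex-related factor, was 0.62, 1.15 and 0.6 in secondary and 9.55, 9.39 and 10.3 in primary libraries, a difference of -2.60 (SE 0.11). MEOX2 was 7.95, 6.9 and 7.91 against 18.1, 18.1 and 17.2, and EBF1 (5.99 against 16) and HAND2 (11.5 against 21.1) were lower by their means. SOX4 was 103, 96.2 and 95.1 against 42.1, 46 and 41.4 and IRX3 was 27.4, 29.5 and 30.8 against 13, 11.1 and 12.9. FOXC1 (4.24 against 1.23), SNAI2 (119 against 70), TWIST1 (82.7 against 60.4) and PRRX1 (666 against 501) were also higher. Of 22 positional HOX genes tested, 6 were lower, 15 were not called and 1, HOXB9 (2.24, 2.3 and 2.3 against 0.82, 0.81 and 0.95), was higher. HOXC8, which was 133, 129 and 120.1 against 142, 145 and 142, differed by -0.17 on the log2 scale. The share of HOX genes called was near the 35.5% of all genes.

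Interferon response genes were lower in secondary cells. Of 36 tested, 24 were lower and 1 higher, with a median of -0.35, and 7 of them were lower by at least 2-fold. IFI6 was 226, 236 and 239.8 in secondary and 550.3, 481 and 497 in primary libraries, a difference of -1.12 (SE 0.067, limma adjusted p 4.59e-12). MX1, a GTPase that blocks viruses, was 35, 35.1 and 32.3 against 73.8, 73.1 and 79.6, a difference of -1.12 (SE 0.051). IFI44L was 5.3, 5.76 and 5.17 against 13.8, 17.7 and 13.2, and the RNA sensor IFIH1 was 2.29, 2.29 and 2.17 against 5.55, 6.09 and 5.74. None of these genes overlapped between the groups. ISG15 (13.4 against 32.5), BST2 (2.78 against 9.54) and IRF9 (31.8 against 52.9) were lower as well. The higher member was the transcription factor IRF1, at 14.5, 13.1 and 14.6 against 6.63, 6.21 and 6.96. Among 11 tested genes of antigen presentation, 4 were lower, with B2M at 943, 891 and 936 against 1112, 1030.2 and 1041, and 2 higher (1 without secondary F2, secondary F3 or primary F2), with the protease CTSS at 17.1, 17.1 and 16.3 against 8.39, 9.67 and 9.14.

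LAPTM5, a lysosomal membrane protein best known from blood cells, was 0.27, 0.41 and 0.21 in secondary and 9.23, 7.55 and 7.82 in primary libraries, a difference of -2.83 (SE 0.093). The chemokine CCL17 was 3.69, 8.46 and 5.12 against 44.8, 35.6 and 42.1, a difference of -2.68 (SE 0.28), with more spread among its secondary libraries. LAPTM5 separated the groups while PTPRC, the common leukocyte marker, was at 0 in both. CXCL12, a chemokine of papilla and dermal fibroblasts, was lower at 10.7, 6.64 and 9.92 against 22.2, 19.8 and 21.5, as was TNFSF15 at 0.11, 0.06 and 0.13 against 1.6, 2.31 and 1.67. IL1A (4.3, 3.03 and 3.29 against 1.39, 1.19 and 1.02), IL6 (13.4 against 8.5) and LIF (3.12 against 1.27) were higher. Over 22 tested chemokines and cytokines, 7 were higher and 4 lower. Of 18 tested complement, coagulation and serpin genes, 8 were higher and 6 lower. Thrombomodulin (THBD) was 41.4, 42.4 and 42 against 6.17, 7.48 and 6.02, a difference of 2.51 (SE 0.06). The complement regulator SERPING1 (19.4, 22 and 19.8 against 42.9, 36.8 and 42.6) was lower.

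Immediate early genes, the fast first response of a cell to growth factors or stress, were mostly higher in secondary cells. Of 36 tested, 24 were higher and 6 lower, with a median of 0.41. FOS was 145, 146 and 146 against 50.7, 46.9 and 47.6, a difference of 1.57 (SE 0.042, limma adjusted p 2.73e-18). FOSB was 44.2, 47.1 and 46 against 11.4, 11.2 and 12.7, a difference of 1.87 (SE 0.059). EGR1 was 249, 263 and 256 against 126, 122 and 137, and IER3 was 742, 733 and 768 against 456, 379.8 and 418. In each case every secondary library exceeded every primary library. JUN (262 against 166), MYC (45.2 against 29.6) and NR4A1 (135 against 75.3) were higher too, and DUSP4 (3.89 against 5.55), ZFP36 (34.4 against 46.1) and NR4A3 (2.42 against 3.42) were lower. Stress and unfolded protein response genes gave 13 higher and 3 lower of 33, with 8 higher without primary F3 and 4 higher with the spread of the 6 libraries alone. The kinase EIF2AK3 was 30.4, 30.4 and 29.8 against 19, 20.3 and 20.8, and ATF5 was lower at 202, 202 and 199 against 366, 325 and 385. Among 24 heat shock genes, 10 were higher (6 with that spread) and 4 lower, with the small chaperone CRYAB at 85.6, 82.3 and 88 against 34.8, 27.4 and 33.6.

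Cell cycle genes were lower in secondary cells by small amounts. Of 67 tested, 39 were lower and 28 were not called, with a median of -0.27. MKI67, the proliferation antigen, was 5.11, 5.69 and 5.16 against 8.29, 9.16 and 9.32, a difference of -0.65 (SE 0.06, limma adjusted p 8.05e-09). The mitotic genes NDC80 (10.6, 10.1 and 9.66 against 16.6, 16.3 and 14.5), CDC20 (16.6, 18.2 and 17.4 against 27.9, 24 and 26.1) and KIF20A (17, 17 and 15.8 against 26, 23.8 and 24.6) did not overlap between the groups. Genes of the replication machinery were closer: MCM2 (19.6 against 20.3), MCM6 (42.5 against 44.5), PCNA (39.2 against 41) and TYMS (59.1 against 62.3) were not called. CDKN1C (p57), a cyclin-dependent kinase inhibitor, was also lower, at 3.02, 1.76 and 2.27 against 9.43, 7.7 and 7.77, and CDKN1A (p21) was higher at means of 242 against 186.

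Of 74 cytosolic ribosomal protein genes, 44 were lower and 30 were not called, with a median of -0.16. They held 11.07% to 11.48% of the signal in secondary and 12.15% to 13.2% in primary libraries. RPS12 was 2200.4, 2215 and 2253 against 3174, 2744 and 2772 and RPL4 was 1937, 1925 and 1974 against 2419, 2249.6 and 2267, and primary F1 was the highest library for both. Without primary F1 the count of lower genes was 20, and with the spread of the 6 libraries alone it was 17. Of 13 mitochondrially encoded genes, 7 were higher and 6 were not called, with a median of 0.16. ND1 was 4731, 4273 and 4187 against 3541, 3620.5 and 3531, and secondary F1 was the highest library. Without secondary F1 the count was 4, and without both secondary F1 and primary F2 it was 3. Nuclear genes of oxidative phosphorylation stayed below the shares over all genes, with 3 higher (1 without secondary F3 or primary F3) and 3 lower of 31.

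Among metabolic genes, SHMT1 stood out. This cytosolic enzyme of serine and one-carbon metabolism was 14.7, 16 and 15.9 in secondary and 1.03, 0.66 and 1.19 in primary libraries, a difference of 3.09 (SE 0.12, limma adjusted p 1.17e-15). Its mitochondrial counterpart SHMT2 was 140.4, 157 and 149 against 114.6, 102 and 114, a difference of 0.43 (SE 0.058). Of 21 genes of this pathway, 5 were higher and 2 lower, the latter being AHCY (47.3, 52.5 and 53.1 against 76, 68.2 and 75.4) and CBS (32.9, 36.4 and 35.2 against 47.6, 41.7 and 48.8). The share called in this pathway was near the 35.5% of all genes. SLC2A3, a glucose transporter, was lower at 12, 17 and 12.2 against 43.1, 47.7 and 49.4, and the glycolytic regulator PFKFB3 was higher at 50.4, 56.1 and 53 against 29.1, 27.2 and 28.6. Over 37 genes of glycolysis and hypoxia, 10 were higher and 12 lower. Cholesterol synthesis gave 3 higher and 6 lower of 26, beside 18.3% and 17.2% of all genes. The lower count was 3 without secondary F1 or primary F3, and the higher count was 6 without primary F2. Fatty acid synthesis gave 5 higher and 2 lower of 16, with 1 lower without secondary F2 or F3. The extracellular glutathione peroxidase GPX3 was 182, 179.5 and 175 against 530.2, 476 and 534, a difference of -1.52 (SE 0.054). Lysosomal genes gave 16 higher and 6 lower of 38 (10 lower without primary F2, and 8 higher with the spread of the 6 libraries alone), with GPNMB, a lysosomal and melanosomal glycoprotein, at 43.2, 44.1 and 41.9 against 12.9, 12.8 and 12.

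Of 14 tested receptors for hormones that act on the skin, 8 were lower and 3 higher, with a median of -0.27. The higher count was 1 without secondary F1 or without primary F1. The vitamin D receptor VDR was 7.11, 8.44 and 7.59 in secondary and 15.9, 17.5 and 16.9 in primary libraries, a difference of -1.03 (SE 0.06). The glucocorticoid receptor NR3C1 was 12.3, 11.2 and 11.1 against 15.1, 18.9 and 16.7, and the thyroid hormone receptor THRB was 12.3, 12.1 and 11.8 against 15.9, 18.1 and 17.8. Each was lower in every secondary library. Receptors of the seasonal hormones were at low levels. The melatonin receptor MTNR1A was 0 in all 6 libraries, and the prolactin receptor PRLR was 0.77, 0.83 and 0.74 against 0.51, 0.79 and 0.6, with overlap. The oestrogen receptor ESR1 was lower (1.54 against 2.38). Among 18 clock genes, 2 were higher, NFIL3 (48.5, 47.2 and 49.2 against 23.6, 22.9 and 22.1) and BHLHE40 (167, 175 and 167 against 116, 111 and 119), and 4 were lower. CLOCK, ARNTL, PER1 and PER2 were not called. The share of clock genes called was near the 35.5% of all genes.

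Of 17 tested Notch genes, 4 were higher and 4 lower: the ligands JAG1 (30, 29 and 29.4 against 21.8, 21.2 and 22) and DLL1 (4.38, 5.12 and 5.52 against 2.28, 2.17 and 2.44) were higher, and the target HES1 was lower at 47, 45.1 and 49.4 against 74.3, 73.3 and 68.5. Of 10 tested Hedgehog genes, 5 were higher, with the transcription factor GLI2 at 11.1, 12.3 and 11.8 against 6.12, 5.91 and 7.22 and the transducer SMO at 39.9, 42.1 and 43.9 against 32, 28 and 33.4. The lower genes were the coreceptor CDON (1.96, 1.45 and 1.49 against 3.35, 3.67 and 3.37) and GLI3 (7.2 against 8.64), with 1 lower gene without primary F3.

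With the spread estimated from the 6 libraries alone, counts in several lists fell by over 1.5 times, as did the count over all genes. Lower genes then numbered 6 for BMP and TGF-beta signalling, 5 for integrins and matrix receptors, 7 for matrix proteases and inhibitors, 6 for glycolysis and hypoxia, 3 for cholesterol synthesis, 3 for HOX genes, 2 for clock genes and 2 for Wnt inhibitors and targets. Higher genes numbered 13 for transcription factors and 3 for fatty acid synthesis. The keratinocyte, interferon, immediate early and cell cycle lists kept their larger counts within 1.5 times of those given above.

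Other genes among the 15 largest differences in either direction came from outside these lists. GLDN (gliomedin), a secreted protein known from nodes of Ranvier, was 50.5, 45.7 and 47.1 in secondary and 4.73, 5.34 and 5.73 in primary libraries, a difference of 2.96 (SE 0.06). FEZ1, an adapter of axonal transport, was 20, 21.6 and 20.8 against 2.18, 1.63 and 2.02, a difference of 2.89 (SE 0.083). NDUFA4L2, a mitochondrial protein induced by low oxygen, was 34.4, 39 and 35.5 against 4.63, 3.87 and 3.56, a difference of 2.90 (SE 0.093). For these genes each secondary library was several times above each primary one. TNFRSF21 (death receptor 6) was 52.5, 51.9 and 51.4 against 7.57, 7.83 and 7.29, PPP1R1A, an inhibitor of protein phosphatase 1, was 35.2, 41.3 and 37.8 against 4.04, 4.45 and 4.85, and ISM1 (isthmin 1), a secreted protein, was 8.8, 8.64 and 8.09 against 0.49, 0.55 and 0.62. WFDC2, secreted by epithelia, was 13.5, 14.5 and 11.1 against 0.23, 1.68 and 1.18, with the widest error of the group (difference 2.86, SE 0.26).

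On the lower side, C16H1orf115 was 2.55, 3.55 and 3.28 in secondary and 29.4, 30.1 and 28 in primary libraries, a difference of -2.88 (SE 0.072). ARHGEF5, an activator of small GTPases, was 1.3, 1.27 and 1.37 against 14.1, 15.4 and 16.6, a difference of -2.82 (SE 0.074). ARHGAP24, an inactivator of Rac, was 7.57, 7.1 and 7.16 against 28.7, 31.1 and 31, a difference of -1.92. The secondary libraries were low and close together for all 3 genes. Channels and transporters were lower as well, with CNGA3, a cyclic nucleotide-gated channel, at 1.52, 1.49 and 1.46 against 12, 13 and 12.3 and SLC3A1, a subunit of a cystine transporter, at 2.18, 1.86 and 2.05 against 13, 14.1 and 14. The potassium channel KCNJ5 was 0.39, 0.19 and 0.13 against 5.02, 5.98 and 6.09. The aldehyde dehydrogenase ALDH3B1 (6.03, 6.47 and 6.21 against 30.1, 22.6 and 32.5), the adhesion adapter SORBS2 (1.95, 1.78 and 1.29 against 9.6, 9.62 and 9.83) and the surface protein LY6G6C (14.9, 17.5 and 13 against 59, 50.1 and 65.5) had the remaining falls.

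To see how far these differences held in other groups, the same contrast was taken in the October M libraries and in the June F libraries, which share no sample with it. The contrast called 2412 genes (18.5%) in October M libraries, 10.9% higher and 7.63% lower, and 6435 (49.3%) in June F libraries, 25% higher and 24.3% lower. Differences of at least 2-fold were called for 86 genes (0.659%) in October M and 557 (4.27%) in June F. Of the 4628 genes called in October F, 881 were called in the same direction in October M, which is 19% of the October F calls and 36.5% of the M calls. In the opposite direction 499 were called. With June F, 1834 were shared in direction (39.6% of the October F and 28.5% of the June F calls) and 991 were opposite. In all 3 comparisons 551 genes were called the same way. The difference itself was tested in the same fit. The October contrast differed between F and M libraries for 3483 genes (26.7%), with 1696 (13%) more positive and 1787 (13.7%) more negative in F. Scaling all libraries to the same sum, 1e+06, turned that split into 2411 and 1234. It also moved the median of all genes in this test from 0.0016 to 0.0774. The sign of an October M median closer to 0 than this, or near it, is therefore not settled. Between October and June in F libraries it differed for 5252 genes (40.2%), 2703 (20.7%) more positive and 2549 (19.5%) more negative in October.

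**Figure D4:**
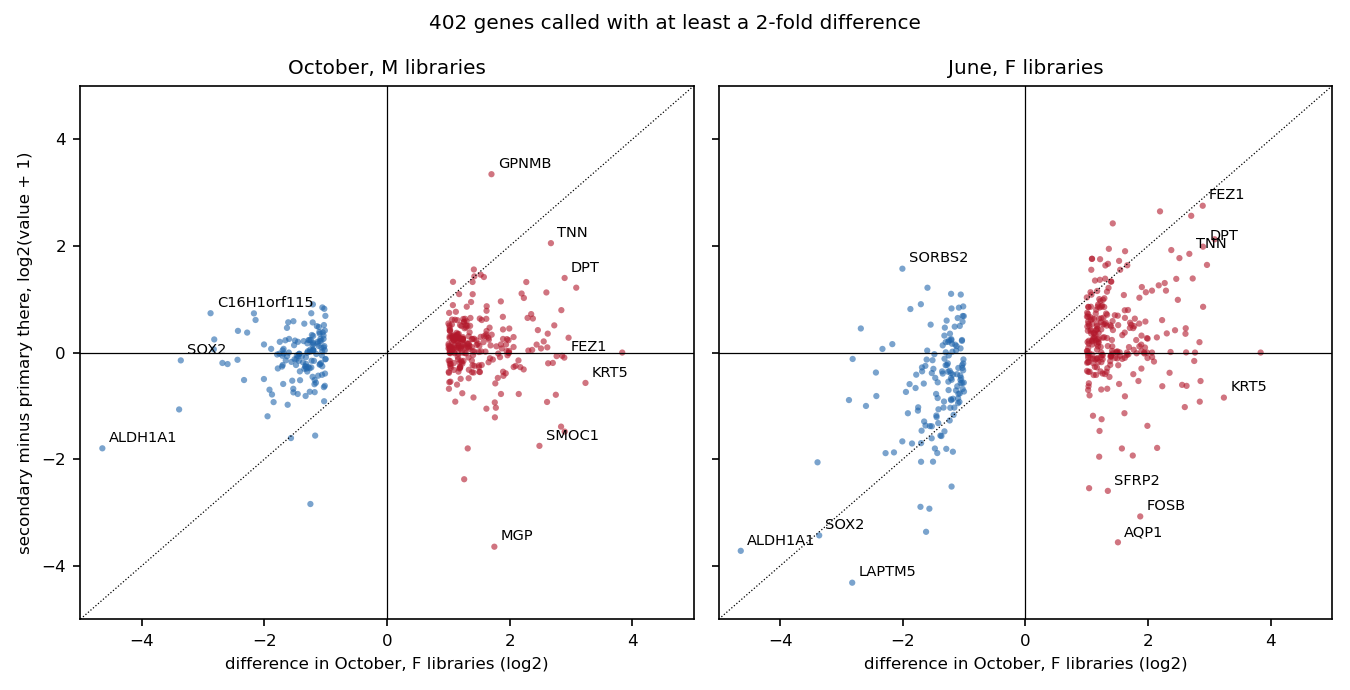
Each point is one of the 402 genes called with at least a 2-fold difference in October F libraries (x axis, log2), with its secondary minus primary difference in October M (left) or June F libraries (right) on the y axis. The dotted line marks equal differences. DPT, TNN and ALDH1A1 lie on the same side in both panels, KRT5 lies below 0 in both, and SOX2 is near the line in June F and near 0 in October M.

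DPT, TNN, SHMT1 and ALDH1A1 differed in the same direction in all 3 comparisons. The ALDH1A1 difference was -1.80 in October M (3.55 against 14.8, group means) and -3.72 in June F (2.75 against 48.4), against -4.64 in October F. For DPT the differences were 1.40 and 1.99, and for TNN 2.05 and 1.85. VCAN (0.51 and 0.19), GREM1 (0.37 and 1.35) and LUM (0.78 and 0.65) also kept their direction in both.

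SOX2, FGF7, LAPTM5, NCAM1 and FEZ1 were called alike in October F and June F but were not called in October M. SOX2 differed by -3.43 in June F (0.257 against 12.5) and by -0.15 in October M (14.2 against 15.9, adjusted p 0.529), where both cell types held it. The test of October F against M gave -3.22 (SE 0.2, limma adjusted p 2.03e-11). FEZ1 was 9.68 against 10.3 in October M, between the October F groups, and differed by 2.99 between F and M contrasts. LAPTM5 was near 0 in both October M groups (0.18 against 0.13), against 8.2 in October and 30.2 in June in the primary F cells. FGF7 differed by -2.05 in June F and 0.04 in October M.

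The keratinocyte markers, by contrast, were mostly not higher in the other comparisons. Their median difference was -0.29 in October M, with 3 members higher and 14 lower, and -0.043 in June F, with 3 higher and 6 lower. Of the 27, 23 were more positive in October F than in October M and 23 more positive than in June F. KRT5 was 18.5 against 27.9 in October M and 0.55 against 1.78 in June F, and the F minus M difference was 3.81 (SE 0.13, limma adjusted p 3.62e-16). Their summed level, up to 497.5 in these secondary libraries, was 89.67 to 102.8 in secondary and 168.5 to 181.6 in primary October M libraries. Across the 12 June libraries it was 49.35 to 135.8.

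Other groups also differed between the comparisons. Interferon genes had a median of 0.049 in October M and -0.085 in June F, and 22 of 36 were more negative in October F than in M. Cell cycle genes were the reverse of October M (median 0.23, 33 higher) and of June F (median 1.37, 66 of 67 higher), and 66 were more negative in October F than in June F. For immediate early genes the medians were 0.08 and -0.47, and 29 of 36 were more positive in October F than in June F. FOSB illustrates this: it was 20.9 against 183 in June F, a difference of -3.07, against 1.87 in October F. Ribosomal protein genes had medians of 0.09 in October M and 0.039 in June F, and 51 of 74 were more negative in October F than in M. The October M medians of interferon, immediate early and ribosomal protein genes are below or near the 0.0774 that a common total gave over all genes. Their sign is therefore not settled, and the counts against October M were not taken at that scaling.

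**Figure D5:**
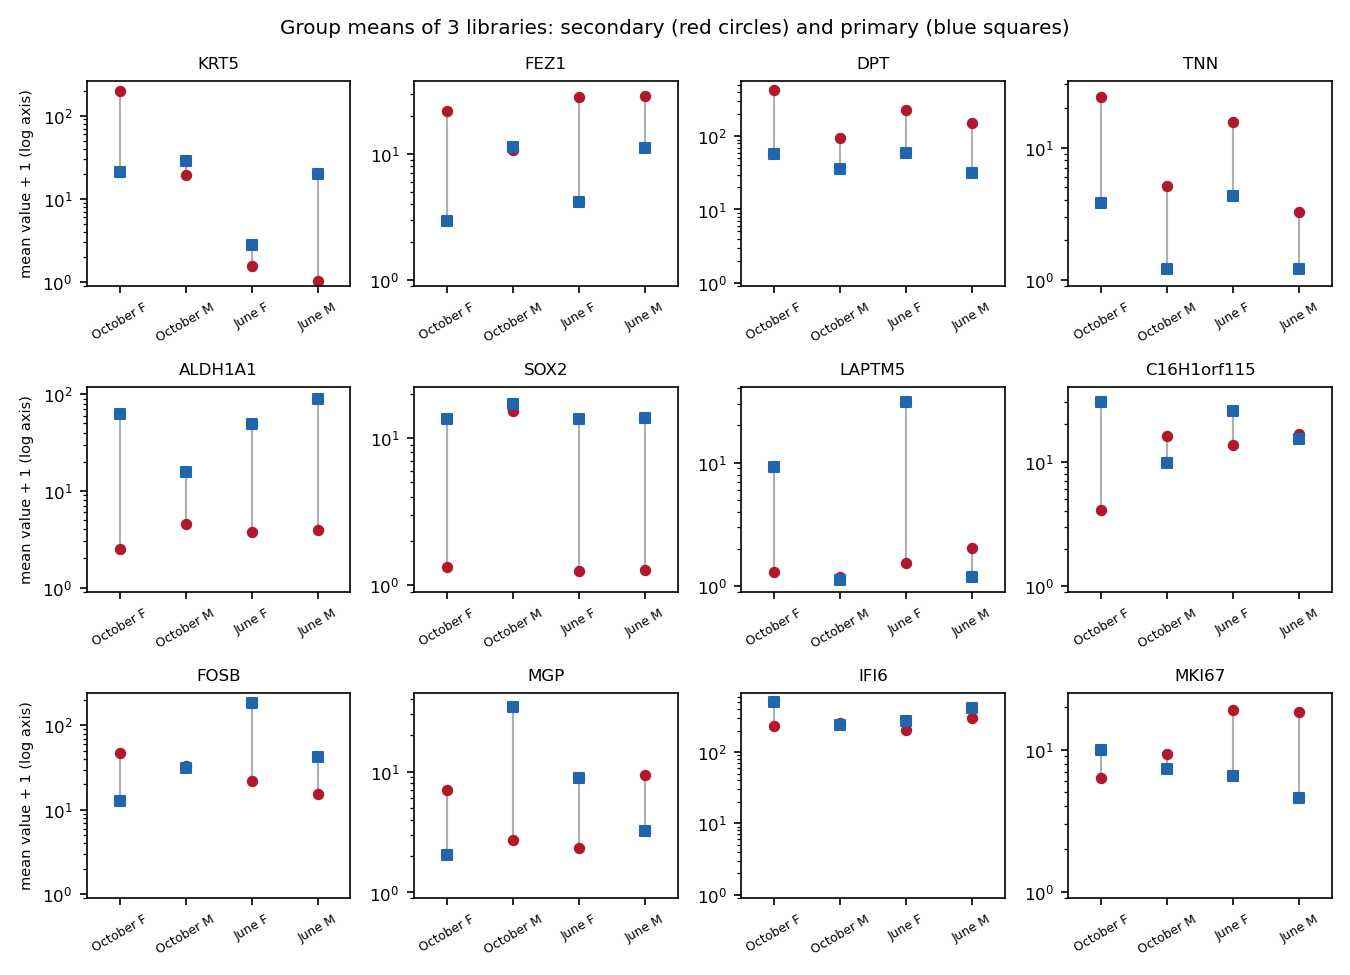
Each panel shows one gene, with the group mean of 3 libraries (value + 1, log y axis) of secondary (red circles) and primary cells (blue squares) by month and sex. KRT5 is high in secondary October F cells (197), SOX2 is near 0 in secondary cells of each set but October M (14.2), and MGP is highest in primary October M cells (33.1).

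Of the 402 genes of at least 2-fold, 307 were called in both tests of the difference, in the direction of their October F difference. A further 70 passed only the test against October M and were called the same way in June F, and 13 passed neither in that direction. These genes were picked for the size of their difference in October F, and both tests use the October F libraries, so these shares are not independent of that choice or of each other. Over all 4628 called genes the first count was 1713 (37%). Each October F mean was also compared, on the log scale, with the midpoint of the secondary and primary October M means. Of the 402 genes, the secondary mean lay further from that midpoint in 265 and the primary mean in 137. The imbalance lay in the 260 higher genes (192 against 68), whereas the 142 lower genes were nearly even (73 against 69). Over all 4628 called genes the counts were 2757 (59.6%) and 1871 (40.4%). Distances to the October M mean of the same cell type were not compared.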

How the data were processed

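Total RNA (RNAiso Plus) went into paired-end cDNA libraries (NEBNext Ultra), per the labels' protocols. The submitters' processing notes name kallisto 0.46.1 and sleuth 0.30.0, with no role or order. Read depth and the reference used were not given in the sources used here. For each of 20326 genes and each library, the authors deposited 1 normalised signal value. These are not counts, so no count model was used. The RefSeq table of ARS1.2 held 20294 of these IDs and served for names only. For near-identical genes, keratins among them, the values rest on how reads were shared out upstream.

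Genes with a value of 1 or more in at least 3 of the 24 libraries were kept (13049). Values were set to log2(value + 1), a pseudocount of 1, and the 8 group means were estimated by limma 3.58.1 (statmod 1.5.0 under R 4.3.3), using its trend and robust options. All 24 libraries shared 1 estimate of the spread. Adjustment was by Benjamini-Hochberg across the tested genes, with calls at an adjusted p under 0.05. The tests of a difference between contrasts used the same fit.

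Named genes follow a rule: the 15 largest rises and falls among called genes that have a symbol and reach a mean of 5 in either group, up to 5 called members by p of each list with 3 or more calls, genes often studied in papilla cells, and the 6 largest differences each way in the tests of a difference. Some genes that the rule selects are not reported here. Other list members were added after their values were seen, to show members on both sides. The gene lists, the members and the tests were chosen with earlier results of these data known. Of the genes often studied, CORIN, FGF5, HHIP, MTNR1A, PRLR and SOX18 were not tested. Alternatives were no filter, a filter in 6 libraries, a pseudocount of 0.1, a non-robust fit, the compared groups alone, a common total of 1e+06, median-of-ratios factors, a fold of at least 2, leaving out single libraries, and a replicate block. Leaving out secondary F1 and primary F2 together was added after the data were seen.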

Additional observations from a re-analysis of the deposited data

Results flagged for a closer look

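These results were picked out because the difference between secondary and primary cells was itself different between groups, by a test of that difference in the limma fit. Values are differences of log2 differences, and each gene was also called in October F libraries.

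Between October F and October M libraries the contrast differed for 3483 genes. MGP, an inhibitor of calcification, had the most positive value of the named genes, 5.39 (SE 0.25, adjusted p 1.5e-13). It was 7.8, 6.07 and 4.21 in secondary and 1.08, 0.81 and 1.26 in primary October F libraries, and 1.74 against 33.1 (means) in October M, so the order of the cell types was reversed. NDUFA4L2 followed with 4.38, the matricellular protein SMOC1 with 4.24, KRT14 with 4.23, KRT5 with 3.81 and the matricellular protein NOV (CCN3) with 3.64. SMOC1 was 5.34, 6.14 and 6.73 against 0.25, 0.41 and 0.13 in October F and 1.98 against 8.97 in October M, and NOV was 6.92, 6.46 and 6.09 against 2.36, 2.3 and 1.76 and 1.66 against 12.8. The most negative were C16H1orf115 at -3.62, SOX2 at -3.22, ARHGEF5 at -3.06, LAPTM5 at -2.89, ALDH1A1 at -2.85 and CNGA3 at -2.84. C16H1orf115 was 15.1 against 8.66 in October M, opposite to its order in October F. The keratinocyte markers, KRT5 and KRT14 among them, had summed levels of 454.5 to 497.5 in secondary F, 109.6 to 124.8 in primary F, 89.67 to 102.8 in secondary M and 168.5 to 181.6 in primary M libraries, and their part in the other values was not tested.

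Between October and June F libraries the contrast differed for 5252 genes. The water channel AQP1 had 5.07 (SE 0.11, adjusted p 1.49e-19), with 48.3, 51.5 and 49.4 against 16.1, 16.2 and 18.3 in October and 6.13 against 83 (means) in June. FOSB had 4.95, the retinoic acid-responsive gene RARRES1 4.39, KRT5 4.08, SFRP2 3.94 and the actin crosslinker ACTN2 3.94. RARRES1 was 1.51, 1.67 and 1.28 against 0.65, 0.36 and 0.52 in October and 1.41 against 29.6 in June, and ACTN2 was 11.3, 11.7 and 10.9 against 1.81, 1.83 and 1.68 and 4.86 against 19.2. On the negative side SORBS2 had -3.58, CCL17 -3.14, KIAA1456 -2.81, ARHGEF5 -2.70, LY6G6C -2.69 and the mitotic gene CDCA3 -2.55. SORBS2 was 9.34 against 2.48 in June and KIAA1456 53.6 against 22.5, both higher in secondary cells there and lower in October. CDCA3 was 7.28, 8.78 and 8.93 against 13, 10.9 and 11.7 in October and 29.4 against 6.16 in June.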

How the results depend on the processing

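Calls for secondary against primary October F libraries numbered 4628, and 2796 when only the 6 compared libraries set the spread. Requiring at least 2-fold left 402, with 428 for F against M and 727 for October against June. Leaving out each library in turn gave 4093 to 4962 calls, 2986 to 3978 for F against M and 4676 to 5706 for October against June, the highest each time without primary F2. Without both secondary F1 and primary F2 the counts were 4201, 3555 and 5404. The other alternatives kept each count within 1.5 times its reported value. In none of them did a named gene that was called in the reported fit or in the alternative change direction. Changes of direction in genes called in neither fit were not counted. Correlations of deviations were −0.237, −0.281 and 0.202 for libraries with the same number, and from -0.401 to 0.512 for unlike numbers. With 3 libraries per group these values cannot tell whether a number stands for a shared goat or culture, and the labels do not say. With the replicate number as a block the counts were 4809, 3628 and 5451. Of the named genes, 11 lost their call with the compared groups alone and 7 without secondary F1 and primary F2. For the keratinocyte markers the median difference was 0.858 without the filter, 0.858 with a filter in 6 libraries and 1.84 with a pseudocount of 0.1. The depth behind the values is unknown, so it could not be used to judge low values.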
